A study of Mus musculus with 2 samples.

Results

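The γ-crystallins were compared between the cortex and the epithelium of the mouse lens, that is, between cortical fibers and the cells on the capsule. The members were the 6 genes Cryga, Crygb, Crygc, Crygd, Crygf and Crygs, each measured by 1 probe with that single gene symbol, out of 13709 genes and 19819 probes. Lenses of 5 mice aged 13 days were dissected with forceps, the cortical fibers giving the cortex sample and the capsule with the cells adhering to it giving the epithelium sample. The sources used here do not say whether the lenses were pooled, or what the strain was. Poly(A) RNA of each sample was hybridized to 1 CodeLink mouse bioarray, a 1-colour array read through biotin-labelled complementary RNA. Each sample has 1 array and no replicate, so the differences carry no test and no p-value.

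γ-Crystallins are compact, mostly monomeric proteins of the βγ-crystallin superfamily, built from Greek key folds, and they pack at very high concentration in fiber cells, where they give the lens its refractive power. Cryga to Crygf form a cluster of closely similar genes that are switched on as epithelial cells differentiate into fibers. Crygs, which encodes γS-crystallin, lies on another chromosome and is known for expression that lasts into adult life. Mutations of γ-crystallin genes cause cataract in mouse and human.

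In the RefSeq annotation of assembly GRCm38.p6, Crygd, Crygc, Crygb and Cryga lie in a row on the minus strand of chromosome 1, with 1 pseudogene between Crygb and Cryga. Crygf lies further along that chromosome on the plus strand, with 9 annotated genes between it and Cryga, and Crygs lies on the minus strand of chromosome 16. The 100 bases before each annotated start are printed here, because they show how far the promoters of genes with different cortex to epithelium ratios resemble each other. They come from the RefSeq promoter table of GRCm38.p6, in which all 6 members had 1 entry. They lie at chr1:65103364-65103463 for Cryga, chr1:65082291-65082390 for Crygb, chr1:65073533-65073632 for Crygc, chr1:65063441-65063540 for Crygd, chr1:65926422-65926521 for Crygf and chr16:22811411-22811510 for Crygs. Capitals mark TTTGTG and TATATA, the longest runs that the 250 bases before the start share in all 5 chromosome 1 members, and TATAAA in Crygs. Both runs were chosen after the sequences were read.
Crygf: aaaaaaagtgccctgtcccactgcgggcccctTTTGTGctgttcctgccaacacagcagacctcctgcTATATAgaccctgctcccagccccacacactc
Crygd: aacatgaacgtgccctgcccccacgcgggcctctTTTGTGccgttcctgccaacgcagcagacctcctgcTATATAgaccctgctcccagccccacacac
Cryga: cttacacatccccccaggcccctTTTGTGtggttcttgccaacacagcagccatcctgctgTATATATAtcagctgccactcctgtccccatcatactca
Crygb: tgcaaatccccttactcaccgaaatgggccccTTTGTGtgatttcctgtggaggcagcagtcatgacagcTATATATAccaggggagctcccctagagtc
Crygc: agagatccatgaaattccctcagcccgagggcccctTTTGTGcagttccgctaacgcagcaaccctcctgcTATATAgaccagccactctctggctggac
Crygs: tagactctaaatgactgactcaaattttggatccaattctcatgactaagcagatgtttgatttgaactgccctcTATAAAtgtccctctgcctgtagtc

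Intensities are given in units of the median of the array, which was 0.998 for cortex and 0.997 for epithelium. Values below a floor of 0.5 of the array median were raised to it, and no member was near it. A gene was counted as higher in a sample when its intensity there was 3-fold or more that in the other sample and no lower than the array median. By this rule, 1290 genes (9.41%) were higher in cortex and 1120 (8.17%) were higher in epithelium. The median log2 difference, cortex minus epithelium, was 0.03 over 8351 genes that exceeded both floors. The dissection was examined with marker genes. Of 7 measured fiber markers, 5 were higher in cortex and none in epithelium, and their summed intensity was 2079 in cortex and 258 in epithelium. Of 8 epithelial markers, 7 were higher in epithelium, their sum was 17.0 in cortex and 516 in epithelium, and Foxe3, Cdh1, Aqp1 and Gja1 were at the floor in cortex. The samples' free-text description names fetal liver. Of 5 liver and erythroid genes measured, 3 were at the floor on both arrays, Afp stood at 0.660 in cortex and 0.680 in epithelium, and Epb42 at 2.09 in cortex and 0.678 in epithelium.

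All 6 γ-crystallins were brighter in cortex by at least 3-fold with the deposited scaling, a count of 6 of 6 beside the 9.41% of all genes higher in cortex. Their median log2 difference was 3.29, or 9.78-fold. The size of the difference was graded. Crygf differed most, with an intensity of 3913 in cortex and 107 in epithelium, a log2 difference of 5.19 (36.6-fold). Crygd had intensities of 3357 in cortex and 196 in epithelium, a log2 difference of 4.10 (17.1-fold). These genes had the largest differences of the family, and both encode γ-crystallins of the chromosome 1 cluster.

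The intensity of Cryga was 4095 in cortex and 329 in epithelium, a log2 difference of 3.64 (12.4-fold). That of Crygb was 3812 in cortex and 496 in epithelium, a log2 difference of 2.94 (7.69-fold). Both belong to the row of chromosome 1 genes that holds Crygd, and they took the middle of the order. Crygc had intensities of 2605 in cortex and 421 in epithelium, a log2 difference of 2.63 (6.19-fold). Crygs had 4101 in cortex and 988 in epithelium, a log2 difference of 2.05 (4.15-fold), the smallest of the family. In a bulk sample, fewer cells with a transcript and less of it per cell cannot be told apart.

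**Figure D1:**
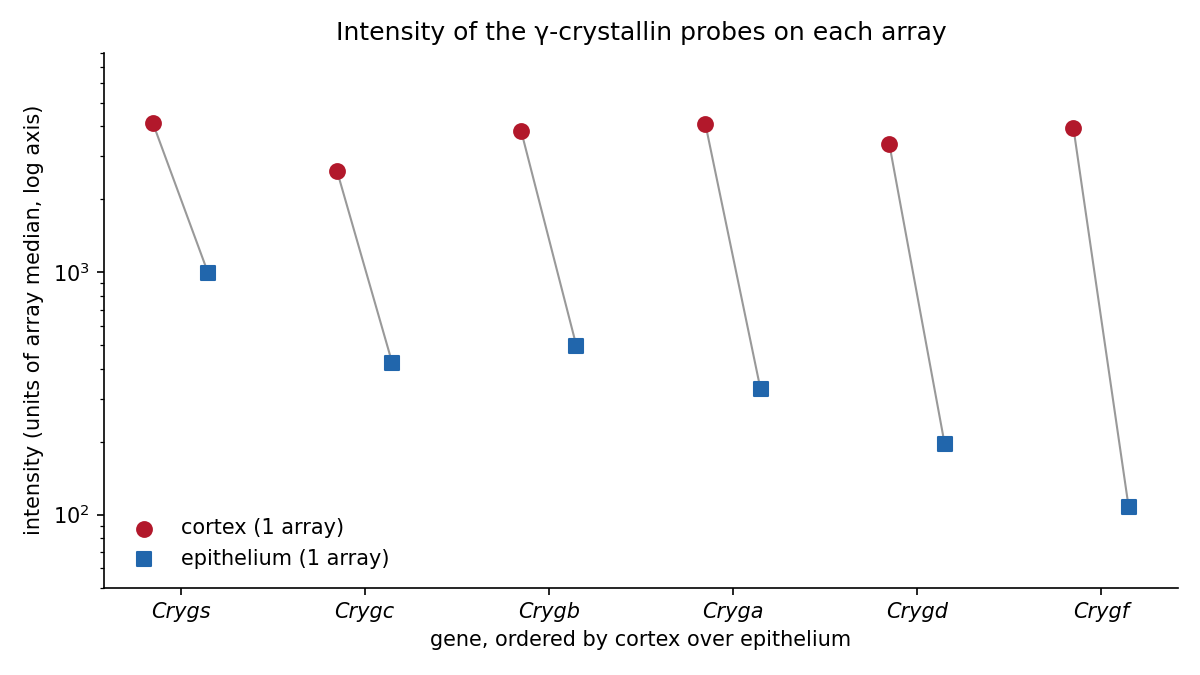
Intensity of each γ-crystallin probe (vertical axis, units of the array median, log scale) in cortex (circles) and in epithelium (squares), 1 array each and with no error bars because there are no replicates. Genes run from the smallest to the largest cortex over epithelium ratio, and the cortex values span 2605 to 4101 while the epithelium values span 107 to 988.

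The 6 cortex intensities spanned 1.57-fold (2605 to 4101) and the 6 epithelium intensities spanned 9.23-fold (107 to 988). Each probe binds its target differently, so the intensities of different genes are not their relative transcript amounts, and these ranges describe the 6 probes only. No saturation flag was used here, and the part of signal compression among such bright spots was not tested.

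Expressed per probe, the epithelium intensity was 2.73% of the cortex intensity for Crygf, 5.84% for Crygd and 8.03% for Cryga. It was 13.0% for Crygb, 16.1% for Crygc and 24.1% for Crygs. Among the fiber markers the same percentage was 1.22% for Lgsn (lengsin), 1.70% for Bfsp1 (filensin), 9.22% for Mip (aquaporin 0), 11.6% for Dnase2b (the DNase of fiber denucleation), 19.9% for Grifin (a lens galectin-related protein), 34.6% for Gja3 (a fiber connexin) and 37.0% for Lim2 (a fiber membrane protein). The γ-crystallins thus lay inside the range of the fiber markers. All 7 fiber markers were above the floor in epithelium, and the part of fiber RNA carried over in the dissection was not tested. Ciliary body and pigment cell genes also differed between the samples, with 5 of 7 higher in epithelium (71.4%, beside 8.17% of all genes). Another, Dct, was higher in cortex (1 of 7, or 14.3%, beside 9.41%). Dct stood at 1.97 in cortex and at the floor in epithelium, and its call was lost after ribosomal centring. The summed intensities of these genes were 12.1 in cortex and 145 in epithelium.

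Because each member has 1 probe and each sample 1 array, the only error at hand is the spread between different probes of the same gene. In 558 genes several probes exceeded both floors, and their log2 differences had a pooled SD of 1.10, or 1.55 for a difference between 2 single-probe genes (that SD times root 2). The median SD of these genes was lower, at 0.59, so the limit depends on the summary used. The spread between probes holds no variation between replicate samples. Whether probes of the same gene target different transcripts was not tested. The gaps between neighbours in the order were 0.58 for Crygc over Crygs, 0.31 for Crygb over Crygc, 0.70 for Cryga over Crygb, 0.46 for Crygd over Cryga and 1.09 for Crygf over Crygd. None of these gaps exceeded 1.55, so neighbours were not separated beyond the pooled spread between probes. Among 34 genes with every probe at a mean log2 intensity of at least 4, a choice made after seeing the data and closer to the brightness of the members, the pooled SD was 0.94, or 1.33 for a difference. Their median SD was 0.32. Of the 15 pairs of members, 6 were further apart than 1.55 and 7 further apart than 1.33, the added pair being Crygd and Crygc (1.47). The 6 were Crygf against Crygs (3.14), Crygc (2.56), Crygb (2.25) and Cryga (1.56), and Crygs against Crygd (2.04) and Cryga (1.58). The pair at the ends of the order was the highest against the lowest of the 6. A single SD, 1.55, is a low bar for such a pair, so passing it is not a test. Over the 6 members the SD of the log2 differences was 1.13, close to the pooled 1.10 between probes of the same gene. The cluster genes resemble each other closely, and the part of cross-hybridization between their probes was not tested. No probe had Cryge, the other member of the chromosome 1 cluster, as its symbol.

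The α-crystallins, which are small heat shock proteins, and the β-crystallins, the oligomeric relatives of the γ-crystallins, gave a narrower set of differences. All 8 passed the 3-fold limit in cortex, with log2 differences of 1.87 for Cryab to 2.70 for Cryba4 and a median of 2.28. The SD of the log2 differences was 1.13 over the 6 γ-crystallins and 0.24 over these 8 genes. Crygf, Crygd, Cryga and Crygb lay above the highest α- or β-crystallin, and Crygc and Crygs lay inside their range. After quantile normalization Crygb (1.15) lay below Crybb3 (1.31), so that 3 members were above the highest, and the SD was 1.42 over the γ-crystallins and 0.59 over the α- and β-crystallins. The γ median was 1.01 above the α and β median on the log2 scale. Within each array, the 8 α- and β-crystallin intensities spanned 5.22-fold in cortex and 5.44-fold in epithelium, so that their ratios stayed close to each other although their intensities varied. With 1 array per sample the difference between the families could not be tested.

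**Figure D2:**
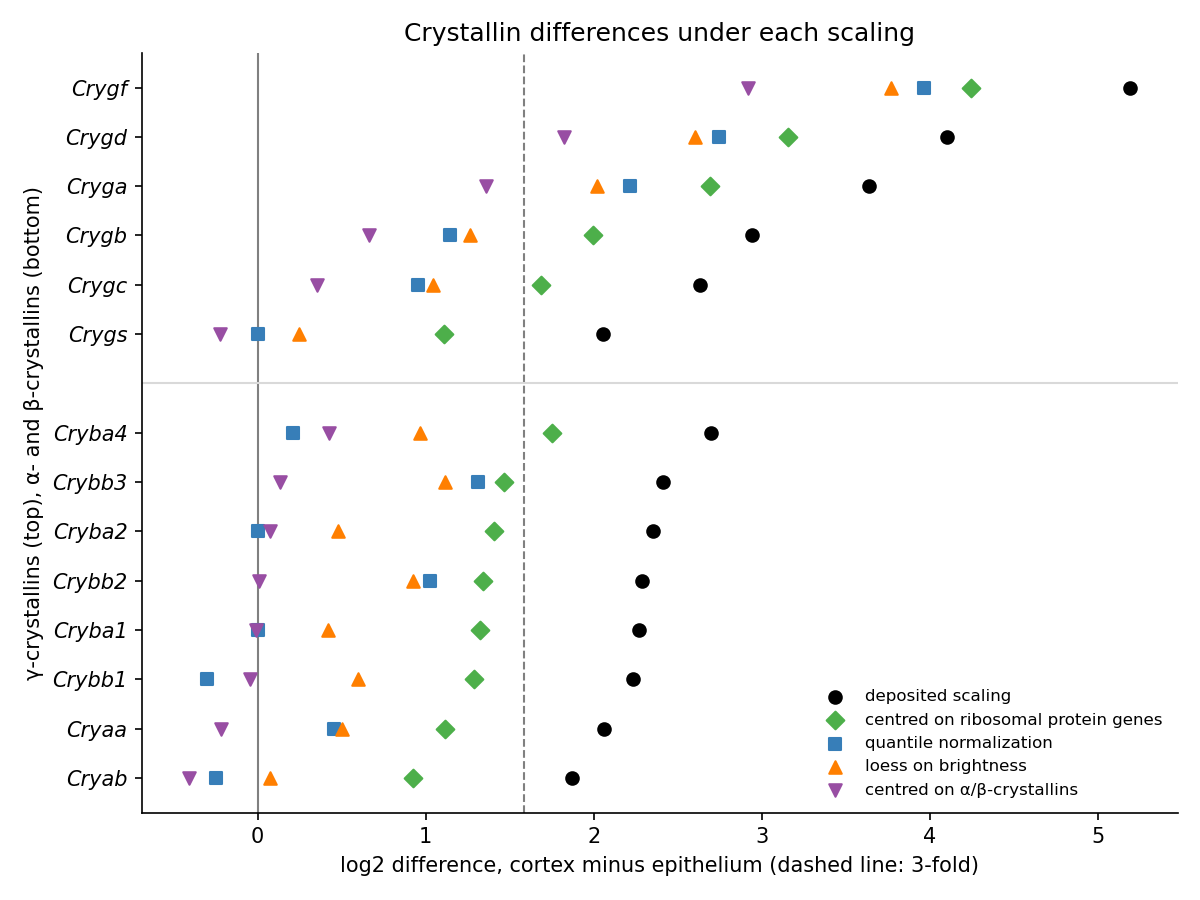
Log2 difference between cortex and epithelium (horizontal axis) for the 6 γ-crystallins (top) and the 8 α- and β-crystallins (bottom), with 1 symbol for each scaling of the 2 arrays, a solid line at 0 and a dashed line at 3-fold. Crygf and Crygd lie right of the dashed line in each of the 5 scalings, and Crygs moves from 2.05 with the deposited scaling to -0.22 after centring on the α- and β-crystallins.

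The size of each member's difference depended on how the arrays were scaled to each other, and the order of the 6 genes was the same after quantile normalization and after loess. The centrings subtract 1 value from all genes and cannot change an order. After quantile normalization or loess on brightness, Cryga, Crygd and Crygf remained at least 3-fold higher in cortex, beside 8.28% and 9.21% of all genes. After centring on 62 ribosomal protein genes, whose median difference was 0.95, all members but Crygs remained, beside 4.1% of all genes. Of the 8 α- and β-crystallins, none remained after quantile normalization or loess and 1 (Cryba4) after ribosomal centring, and Cryab (-0.25) and Crybb1 (-0.30) changed direction after quantile normalization. Ribosomal centring gave 562 genes higher in cortex and 2810 (20.5%) in epithelium. Crygs, ranked 4 among all genes in cortex and 4 in epithelium, had a difference of 0.00 after quantile normalization, which gives equal ranks equal values. Crygf ranked 6 in cortex and 196 in epithelium, and its log2 difference was 3.96 after quantile normalization and 3.77 after loess. With the α- and β-crystallins set to a median of 0, Crygf stood at 2.92, Crygd at 1.82 and Cryga at 1.36, and Crygf and Crygd alone remained past 3-fold, beside 1.12% of all genes.

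**Figure D3:**
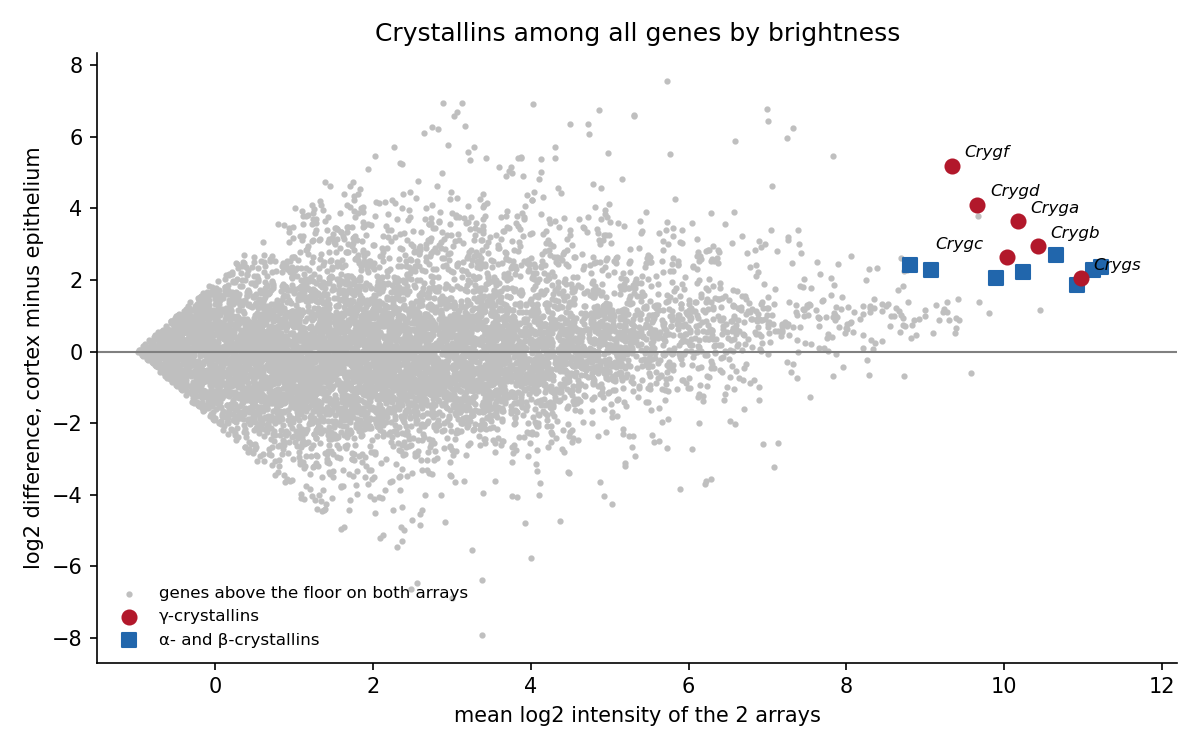
Log2 difference between cortex and epithelium (vertical axis) against the mean log2 intensity of the 2 arrays (horizontal axis) for the 8351 genes that exceeded both floors (grey), the 6 γ-crystallins (circles, named) and the α- and β-crystallins (squares). The γ-crystallins fall from Crygf (5.19) to Crygs (2.05) at the bright end, where Crygc and Crygs lie inside the range of the α- and β-crystallins. The 10 genes outside the crystallins with a mean log2 intensity at or above that of Crygf had a median log2 difference of 1.0.

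Other bright genes set the scale for these differences. Of all genes, 22 had a mean log2 intensity at or above that of Crygf, the dimmest member by this measure, and 10 of them were not crystallins. Those 10 had a median log2 difference of 1.0, and 7 of them encode ribosomal proteins. Of the 10, 1 was at least 3-fold higher in cortex (10%, close to the 9.41% of all genes). This 1 gene was Fabp5, which encodes a fatty acid-binding protein. Its intensity was 3015 in cortex and 219 in epithelium (13.8-fold). Fabp5 was also the gene outside the crystallins nearest to the γ-crystallin median when genes were placed by log2 intensity in cortex and epithelium, at a distance of 0.85 over 2 samples. The next nearest were the ribosomal protein genes Rpl41 (1.59), Rpl11 (1.61), Rpl23 (1.73), Rpl7 (1.77) and Rpl39 (1.94), whose folds of 2.09 to 2.79 were below the limit. Nearest to Crygf itself were Fabp5 (1.10), Cd24a (2.04), which encodes a surface glycoprotein, and Lenep (2.13), a gene named for lens epithelial protein. Lenep had intensities of 1512 in cortex and 34.5 in epithelium (43.9-fold).

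Genes of factors that act on γ-crystallin promoters or on fiber genes were less uniform. Of 17 measured of 27 listed, 3 were at least 3-fold higher in cortex, 1 in epithelium and 13 neither (17.6% in cortex and 5.88% in epithelium, beside 9.41% and 8.17% of all genes), with a median log2 difference of -0.33 beside 0.03 for all genes that exceeded both floors. Hsf4, a heat shock factor required in the mouse lens for fiber gene expression, stood at 139 in cortex and 5.46 in epithelium (25.4-fold). Tdrd7, a component of RNA granules, stood at 170 in cortex and 11.4 in epithelium (14.9-fold). Prox1, a homeodomain factor of fiber elongation, stood at 15.8 in cortex and 2.05 in epithelium (7.74-fold). These 3 genes were brighter in cortex, as the γ-crystallins were. Foxe3, a forkhead factor of the lens epithelium, was at the floor in cortex and at 4.92 in epithelium, at least 9.86-fold lower in cortex. Maf, the leucine zipper factor of crystallin promoters, stood at 174 in cortex and 67.5 in epithelium (2.58-fold), below the limit. Meis1 (5.30 in cortex, 15.8 in epithelium), Pitx3 (27.5 in cortex, 73.0 in epithelium) and Gata3 (3.30 in cortex, 8.16 in epithelium) were also below it, on the side of epithelium. The calls of Hsf4, Tdrd7, Prox1 and Foxe3 were the same after quantile normalization, loess and ribosomal centring. The count higher in epithelium was 3 of 17 after quantile normalization (17.6%, beside 9.48% of all genes), 2 after loess (11.8%, beside 7.83%) and 4 after ribosomal centring (23.5%, close to the 20.5% of all genes).

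Chaperones and enzymes that keep lens protein soluble or reduced were examined as well. Of 14 measured of 15 listed, 4 passed the 3-fold limit, all in cortex (28.6%, beside 9.41% of all genes), and the median log2 difference was 1.12. Beside the α-crystallins Cryaa and Cryab, these were Hspb1, a small heat shock protein (1197 in cortex and 13.9 in epithelium, 86.4-fold), and Dnajb1, a co-chaperone of Hsp70 (59.0 in cortex and 5.67 in epithelium, 10.4-fold). The glutathione synthesis genes Gss (139 in cortex, 49.9 in epithelium) and Gclc (36.5 in cortex, 14.0 in epithelium) and the Hsp70 family gene Hspa8 (359 in cortex, 152 in epithelium) were below 3-fold. Pcmt1, a protein repair methyltransferase (14.3 in cortex, 7.16 in epithelium), was also below it. The list median was 0.09 after quantile normalization, 0.13 after loess and 0.17 after ribosomal centring, where Hspa1b and Hsph1, named after their values were seen, passed in epithelium (2 of 14, or 14.3%, beside 20.5% of all genes). Hspb1 and Dnajb1 kept their calls in these 3 scalings, and the α-crystallins did not. Of 9 other genes with crystallin names, 4 were measured, none passed, and Cryz, a quinone reductase and enzyme crystallin of guinea pig, stood at 1.09 in cortex and 1.39 in epithelium. Crym and Cryl1 were at the floor on both arrays.

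The γ-crystallins together made up 8.67% of the intensity summed over all genes in cortex and 1.88% in epithelium, while the α- and β-crystallins made up 9.88% in cortex and 3.84% in epithelium. The summed γ intensity was 8.63-fold higher in cortex, and 11.5-fold higher without Crygs. Crygs alone held 1.62% of the sum in cortex and 0.730% in epithelium. Summed intensities add probes of unlike binding and describe these 2 arrays.

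**Figure D4:**
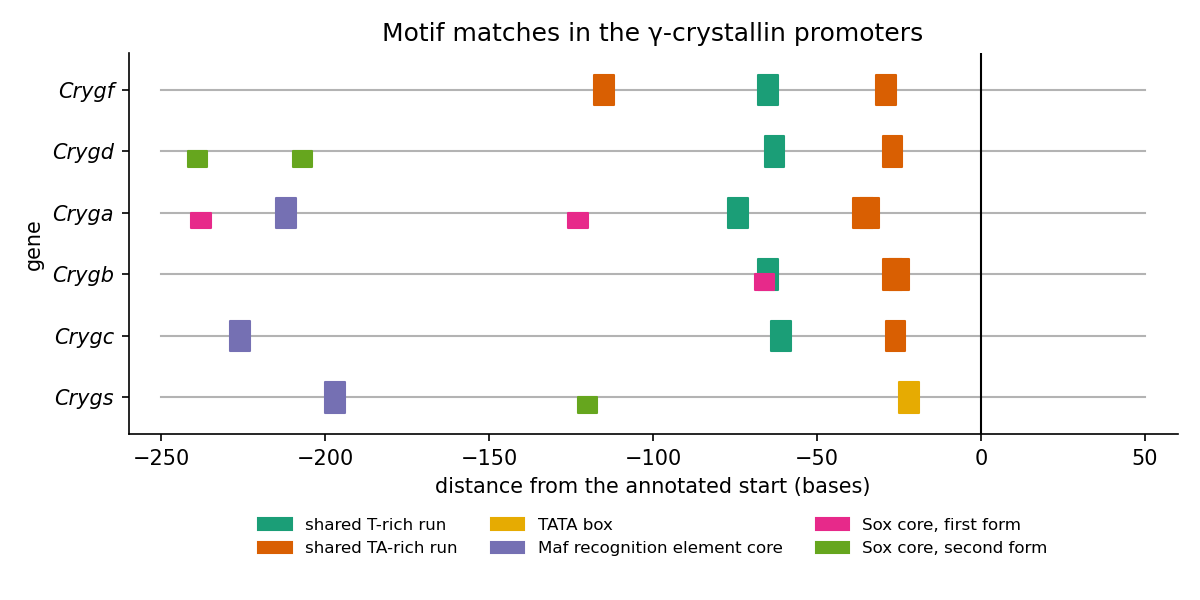
Matches of 6 short motifs (coloured blocks, defined in the legend) in the promoter window of each γ-crystallin gene, by distance in bases from the annotated start (vertical line at 0). The T-rich and TA-rich runs recur before the start of the 5 chromosome 1 genes, and the TATA box match lies in Crygs.

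The promoter windows printed above were compared with the expression order. TATATA began 28 to 39 bases before the start in the 5 chromosome 1 members (a second copy in Crygf began at 118), and TTTGTG began 64 to 77 bases before it. Of all 32851 promoter windows in the table, 5.67% held TATATA and 17.7% held TTTGTG on either strand. Both runs together, before the start and on the gene's strand, were in 163 windows (0.496%), the 5 members included. Crygs held neither, and held TATAAA, the TATA box (in 13.6% of windows), 25 bases before its start. These runs were therefore shared by genes with folds as different as those of Crygf (36.6) and Crygc (6.19).

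Motifs of lens factors were searched on both strands of the windows of 300 bases. TGCTGA, the core of a Maf recognition element, was in Cryga, Crygc and Crygs (19.5% of all windows). The Sox cores ACAAAG and AACAAT were in Cryga and Crygb (18.7% of windows) and in Crygd and Crygs (10.7%), and the ACAAAG match of Crygb overlapped its TTTGTG run. The heat shock element core GAANNTTC was in no member (7.86% of windows). A match is a description of letters and not a binding site. None of these motifs was shared by Crygf and Crygd, the genes with the largest differences.

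Over the 150 bases before the start, the promoters of the 10 pairs of chromosome 1 members were 55.0% to 76.4% identical in a global alignment, and Crygs was 48.0% to 50.8% identical to each of them. The most alike pair of members was Crygd and Crygf (76.4%), the genes with the largest differences in expression. Their log2 differences were 1.09 apart. Over the same bases, Crygf was 78.7% identical to Cryge. Identity did not order the gaps between pairs. Crygb and Crygc (57.0%) differed by 0.31 in their log2 differences. Cryga and Crygd (62.9%) differed by 0.46 in their log2 differences, while Crygc and Crygf (62.3%) differed by 2.56. Along the row of genes Crygd, Crygc, Crygb and Cryga, the folds were 17.1, 6.19, 7.69 and 12.4. No pair of these genes exceeded the 1.55 of the pooled spread between probes. Only Crygd and Crygc (1.47) exceeded the 1.33 of bright probes. By the pooled spread, a pattern along the row was therefore not resolved. The median SD between probes was lower, at 0.59 over all such genes and 0.32 over the bright ones, so this reading depends on the summary used.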

How the data were processed

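The deposited table holds 1 linear intensity per probe and array. Per the labels, CodeLink software read the array image; the sources used here do not give the authors' background and scaling steps. The deposited intensities include values below 0 (161 probes in cortex, 74 in epithelium), and the number of arrays limits the precision. Genes were named by the platform annotation (15120 probes with 1 symbol, 38 with several, 4661 with none), of which 15064 matched RefSeq and no symbol changed. Values under 0.5 of the array median were raised to that floor, log2 was taken, and the brightest probe stood for a gene. The rule of size was 3-fold. All gamma-crystallins, the listed α- and β-crystallins, called members of the gene lists with up to 4 others per list by absolute difference, and the nearest genes by distance are named. Lists of cell type markers are given by counts and sums. Members and lists were chosen with earlier results of these data known. The procedure was checked on simulated data, with changes well past 3-fold in bright probes and noise below the spread between probes. That check shows only that such changes are recovered, and it gives no rate of false calls. Promoters were aligned globally (match 1, mismatch -1, gap opening -2, extension -0.5). Alternatives were other scalings, floors, probe rules and fold limits. Tools were Python 3.11.15, numpy 2.4.6, pandas 2.3.3, statsmodels 0.14.6, biopython 1.88 and matplotlib 3.10.9.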

Additional observations from a re-analysis of the deposited data

How the results depend on the processing

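The order of the 6 γ-crystallins was the same after quantile normalization and after loess, the alternatives that could change it. Of the 97 recomputed values, 69 stayed within the pooled SD between probes (counts and shares within 1.5-fold), 27 moved and 1 reversed. Many of the 69 equalled the main value by construction, so their number does not measure stability. These came from floor and probe rules on single bright probes, and from centrings of a spread or of a difference between medians. Quantile normalization lowered the log2 differences to 2.22 (Cryga), 1.15 (Crygb), 0.96 (Crygc), 2.74 (Crygd), 3.96 (Crygf) and 0.00 (Crygs), with a median of 1.68 and 3 members at least 3-fold higher. Loess gave 2.02 (Cryga), 1.26 (Crygb), 1.04 (Crygc), 2.60 (Crygd), 3.77 (Crygf) and 0.24 (Crygs), with a median of 1.64 and 3 members. Centring on the α- and β-crystallins, which subtracts their median by construction, gave 1.36 (Cryga), 0.67 (Crygb), 0.35 (Crygc), 1.82 (Crygd), 2.92 (Crygf) and -0.22 (Crygs, reversed), with a median of 1.01 and 2 members. The count of all genes higher in cortex was 1290, against 562 after ribosomal centring, 153 after centring on the α- and β-crystallins, 2243 at a 2-fold limit and 698 at a 5-fold limit. The median over genes above the floor on both arrays was -0.11 after quantile normalization, -0.91 after ribosomal centring and -2.24 after centring on the α- and β-crystallins, and cortex took 53.5% of calls as deposited, 16.7% after ribosomal centring and 2.61% after the last. The spread between Crygf and Crygs stayed at 3.14 or above, and the γ median minus the α and β median at 1.01 or above. The floor and the probe rule changed no member's value, since each has 1 bright probe. No paired analysis was possible because each sample has 1 array. The cause of the dependence on scaling was not tested.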
